A study of Bos taurus with 14 samples.

Results

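AKT1S1 (ENSBTAG00000005763), RICTOR (ENSBTAG00000006697), TTI1 (ENSBTAG00000004100) and TBC1D7 (ENSBTAG00000017160) encode subunits or regulators of the mTOR kinase complexes, and their transcripts were followed across 14 RNA-seq libraries of cattle embryos. They are 4 of the 27607 Ensembl genes of the count table, and all 4 passed the filter of 1 CPM (a count relative to library size) or more in 3 libraries or more, which 13390 genes passed. They were taken from the study's own list of mTOR genes that differed between groups of Day-4 embryos. They were thus selected on their fold changes between IVC, LACT and DRY in these same libraries, and those differences are given here as a description with no test. The mean of the Day-4 groups against Day 2, and the change of the ratios between these genes across the same days, are other contrasts than those and were tested.

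All embryos were produced in vitro from abattoir oocytes with semen of 1 bull, and each library was made from a pool of 5 embryos. Day-2 embryos were at the 4-cell stage (Day 2, n = 5) and Day-4 embryos at the 16-cell stage. Day-4 embryos either stayed in synthetic oviduct fluid (IVC, n = 3; labelled IVP) or spent Days 2 to 4 in the oviduct of a postpartum primiparous Holstein-Friesian cow. Those cows were milked (LACT, n = 3) or had been dried off at calving and were never milked (DRY, n = 3). Each cow received 50 embryos, and the 5 embryos of a DRY or LACT pool came from 1 cow, so that cow and library coincide. Embryos recovered from oviducts had also started in culture, and no embryo was conceived in a cow. Whether the pools of Day 2 and IVC came from separate cultures is not given in the sources used here, so the p-values measure the spread between these pools.

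mTOR is a serine/threonine kinase that works in a pair of complexes. mTORC1 promotes protein synthesis and growth and restrains autophagy when amino acids and growth factors are present, and mTORC2 phosphorylates AKT downstream of growth factors. The growth-factor arm reaches mTORC1 through the TSC complex, which inactivates the small GTPase RHEB, the direct activator of mTORC1. In the early bovine embryo, maternal transcripts stored in the oocyte are degraded while the embryonic genome is activated, and the 4-cell and 16-cell stages lie on either side of the onset of its main wave.

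Total counts ranged from 22711367 to 40357379 per library. The 10 genes with the highest counts took 11% to 19.6% of the counts on Day 2 and 40.6% to 46.8% on Day 4, so levels are given as CPM after TMM scaling. In 3 Day-4 libraries (IVC 1, DRY 3 and LACT 3) the CPM by library total lay between those of the other libraries of the same group for 98.6%, 97.5% and 98.5% of 8001 to 8685 expressed genes, against 0.557% to 1.66% in the other 6 Day-4 libraries. All 4 genes were within 5% of the mean of the other libraries of the group there. A library so near the mean of the others makes the spread within its group smaller than that of the others alone. Whether these 3 libraries are separate pools was not tested, and SDs, SEs and p-values that include them may be too small. Passing calls, differences of DRY from IVC and counts of separate Day-4 groups are also given without them (11 libraries, or 6 on Day 4). Levels, spreads and most other values include them. In a pool, fewer cells that express a gene and less RNA per cell cannot be told apart. Markers of oocyte, cumulus, oviduct or blood cells were not analysed here, so the labelled stage and tissue were not checked against them.

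AKT1S1 encodes PRAS40, an inhibitory partner of mTORC1 that AKT phosphorylates and so releases. On Day 2 its level was 8.23, 22.4, 5.21, 78.1 and 44.3 CPM in libraries 1 to 5. Day-2 library 4 was thus 15.0 times library 3, and Day 2 spanned a wider range than any Day-4 group. In IVC the level was 9.74, 5.28 and 15.6 CPM. In LACT it was 12.9, 29.5 and 21.9 CPM, and in DRY 31.5, 63.7 and 44.8 CPM. IVC was low and DRY high, the lowest LACT library lay within IVC, and all 9 Day-4 libraries fell inside the range of Day 2 (by library totals IVC 2, at 4.46 CPM, fell under its lowest library at 5.54). The order of the means was IVC (10.2 ± 5.2 CPM, SD), LACT (21.4 ± 8.31), Day 2 (31.6 ± 30.2) and DRY (46.7 ± 16.2). Of the neighbours in that order, IVC and LACT overlapped, and Day 2 overlapped both LACT and DRY.

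RICTOR encodes the scaffold that defines mTORC2 and is needed for its phosphorylation of AKT. Its level on Day 2 was 58.6, 111, 109, 54.1 and 80.8 CPM, so that libraries 2 and 3 lay near the IVC libraries and libraries 1 and 4 well under them. In IVC it was 103, 109 and 108 CPM, which gave the lowest coefficient of variation (3.36%) of these genes in any group. In LACT it was 112, 142 and 128 CPM, and in DRY 199, 149 and 155 CPM. After TMM every LACT and DRY library was above every Day-2 library, whereas all 3 IVC libraries were inside the Day-2 range. The means rose in the order Day 2 (82.7 ± 26.9 CPM, SD), IVC (107 ± 3.58), LACT (127 ± 14.9) and DRY (168 ± 27.7). Day 2 and IVC overlapped, while IVC, LACT and DRY did not overlap one another after TMM. By library totals they did, since LACT 1 (96.4 CPM) lay within IVC and LACT 2 (143 CPM) above DRY 2 (137 CPM), and LACT 1 and LACT 3 (119 CPM) lay under Day-2 library 5 (125 CPM).

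TTI1 belongs to the TTT complex, a co-chaperone that keeps mTOR and related kinases stable and helps to assemble both mTOR complexes. On Day 2 its level was 14.9, 15.7, 1.09, 9.80 and 1.57 CPM. Libraries 3 and 5 were far under the other Day-2 libraries, and their values rest on 35 and 73 counts, against 274 to 497 in the others. In IVC the level was 16.1, 19.2 and 15.0 CPM. In LACT it was 30.4, 23 and 26.6 CPM, and in DRY 34.0, 32.5 and 29.8 CPM. All LACT and DRY libraries were above all Day-2 and IVC libraries, and 2 of the 3 IVC libraries were above Day 2 (by library totals none was). The order of the means was Day 2 (8.62 ± 7.03 CPM, SD), IVC (16.8 ± 2.20), LACT (26.6 ± 3.68) and DRY (32.1 ± 2.10). After TMM, IVC and LACT were the only neighbours in that order that did not overlap, and by library totals LACT (up to 26.2 CPM) and DRY (from 28.5 CPM) did not overlap either.

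TBC1D7 is a core subunit of the TSC complex and stabilizes its TSC1 and TSC2 subunits, so that it acts on the inhibitory side of mTORC1. Its level on Day 2 was 8.50, 21.8, 41.8, 34.4 and 74.0 CPM. In IVC it was 4.51, 4.12 and 5.45 CPM, under every library of the other 3 groups. In LACT it was 11.5, 24.2 and 18.4 CPM, and in DRY 28.9, 25.1 and 24.1 CPM. The LACT and DRY libraries were inside the Day-2 range (by library totals LACT 1, at 9.95 CPM, was just under its lowest at 10.04), and the highest LACT library just exceeded the lowest DRY library. The order of the means was IVC (4.70 ± 0.686 CPM, SD), LACT (18.1 ± 6.35), DRY (26.0 ± 2.50) and Day 2 (36.1 ± 24.7). Only IVC was separate from its neighbour in that order.

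**Figure D1:**
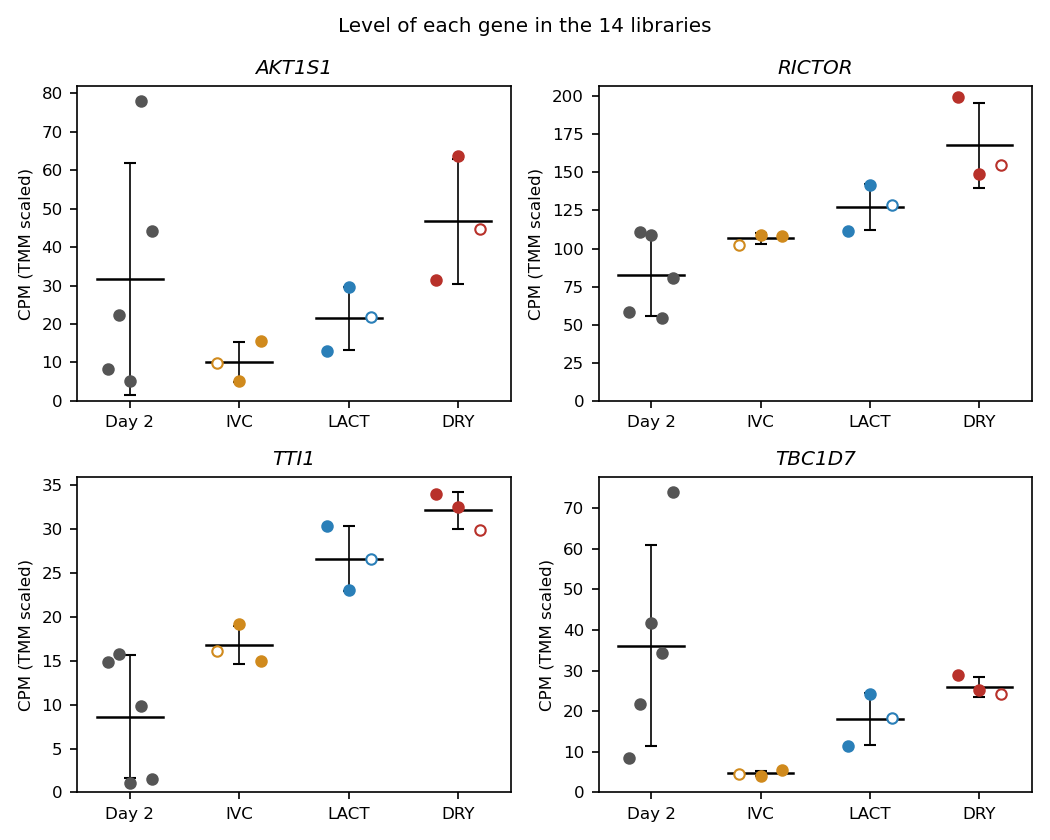
Level of AKT1S1, RICTOR, TTI1 and TBC1D7 (TMM-scaled CPM, linear axis) in each library of Day 2, IVC, LACT and DRY. Group means are drawn as bars with their SD, and the libraries IVC 1, DRY 3 and LACT 3 as open points. Day-2 AKT1S1 runs from 5.21 to 78.1 CPM and Day-2 TTI1 from 1.09 to 15.7 CPM, whereas Day-2 RICTOR runs from 54.1 to 111 CPM, and the IVC libraries of TBC1D7, at 4.12 to 5.45 CPM, lie under all others.

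Against the range of the 5 Day-2 libraries, 2 of the 4 genes (RICTOR and TTI1) lay wholly above it in LACT, beside 30.6% of genes, and the same 2 in DRY, beside 26.5%. By library totals these counts were 1 (TTI1) in LACT, beside 28.3%, and 2 in DRY, beside 23.8%. In IVC 0 of the 4 lay wholly above it, beside 31.3%, and 1 (TBC1D7) wholly under it, beside 26.9%. In LACT and in DRY 0 of the 4 lay wholly under it, beside 26.2% and 26.7%. Over all 9 Day-4 libraries 0 of the 4 were wholly above Day 2 and 0 wholly under it, beside 20.4% and 19.3% of genes. These counts share the Day-2 libraries and follow in part from the order that chose the genes, so nothing is read from them.

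The 4 genes varied on Day 2 by different amounts. The coefficient of variation over the 5 Day-2 libraries was 95.5% for AKT1S1, 81.6% for TTI1, 68.4% for TBC1D7 and 32.5% for RICTOR, beside a median of 40.9% over 7676 genes of at least 5 CPM on Day 2. The highest Day-2 level was 15.0 times the lowest for AKT1S1, 14.4 times for TTI1, 8.71 times for TBC1D7 and 2.05 times for RICTOR. The library with the highest level differed from gene to gene: library 4 for AKT1S1, library 5 for TBC1D7 and library 2 for RICTOR and TTI1. On Day 4, AKT1S1 stayed the most variable of the 4 in IVC (50.8%), in DRY (34.7%) and in LACT (38.8%). The medians over genes of at least 5 CPM in the group were 24.9%, 29.1% and 23.4%. In the same order TTI1 was at 13.1%, 6.55% and 13.8%, TBC1D7 at 14.6%, 9.60% and 35.2%, and RICTOR at 3.36%, 16.5% and 11.7%. Those Day-4 percentages include the libraries at the mean of the others.

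Day 4, as the mean of its 3 groups, was set against Day 2 over all 14 libraries. This averages the environments across the stage of genome activation and does not show a move in each of them. In that mean RICTOR and TTI1 rose and TBC1D7 fell, while AKT1S1 did not pass the test. RICTOR was 1.59-fold higher on Day 4, a log2 fold change of 0.67 with an SE of 0.20 (95% interval 0.23 to 1.11, edgeR adjusted p = 0.0105). TTI1 was 2.82-fold higher, a log2 fold change of 1.5 with an SE of 0.58 (0.26 to 2.73, edgeR adjusted p = 0.0344). The estimate of TTI1 was the higher of both, with the wider interval, and their difference is given with the ratios. TBC1D7 was 2.77-fold lower, a log2 fold change of -1.47 with an SE of 0.40 (-2.34 to -0.61, edgeR adjusted p = 0.00556). For AKT1S1 the log2 fold change was -0.54 with an SE of 0.54, and its interval of -1.70 to 0.62 spans both directions (edgeR adjusted p = 0.393). Thus 3 of the 4 genes passed, beside 63.9% of all 13390 genes tested (30.9% higher and 33.0% lower on Day 4), so a call in this comparison is common among all genes.

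Without the 3 libraries at the mean of the others, RICTOR and TBC1D7 still passed (log2 fold change 0.71 and -1.44, edgeR adjusted p = 0.0455 and 0.0402) and TTI1 did not (1.53, adjusted p = 0.0915), beside 55.2% of 12657 genes (25.7% higher and 29.5% lower). The call of TTI1 was also lost when Day-2 library 4, Day-2 library 5, IVC 2 or LACT 1 was left out (edgeR adjusted p up to 0.0591), and AKT1S1 turned to a log2 fold change of 0.11 without Day-2 library 4. The Day-2 libraries 3 and 5, where TTI1 was lowest, were those where TBC1D7 was highest, and without both of them TTI1 kept its call at 0.85 (edgeR adjusted p = 0.0342) whereas TBC1D7 lost it at -0.74 (adjusted p = 0.142). The scaling set the size of these differences. Scaling by library totals moved the median log2 fold change of all genes by -0.35, from -0.03 under TMM, and under it RICTOR was at 0.30 and TTI1 at 1.19 with neither passing (edgeR adjusted p = 0.217 and 0.0724). Relative to the median of all genes, RICTOR was at 0.70 under TMM and 0.68 under library totals, TTI1 at 1.53 and 1.57, TBC1D7 at -1.44 and -1.54, and AKT1S1 at -0.51 under both.

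**Figure D2:**
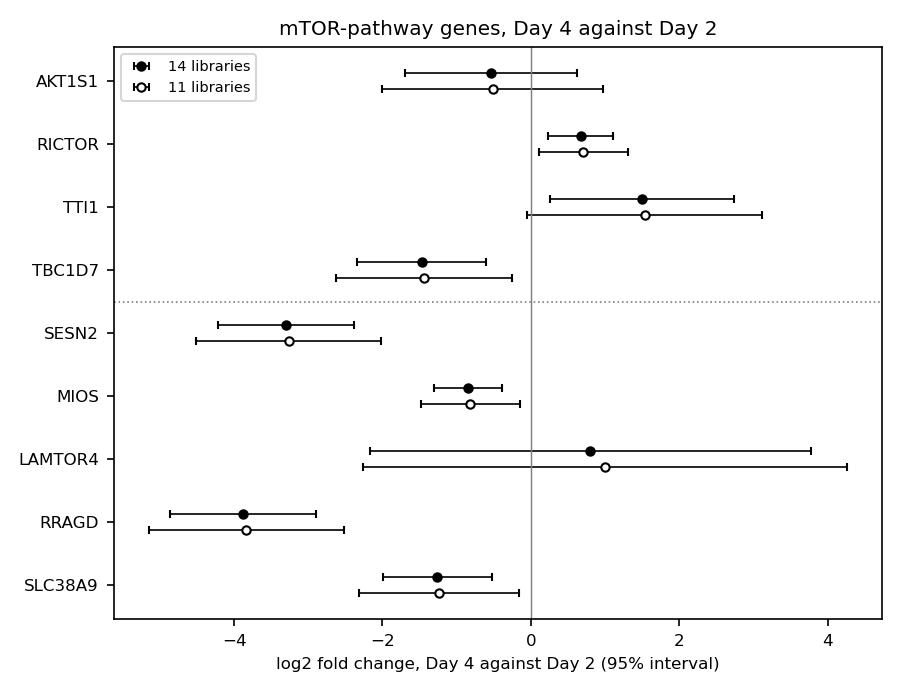
Log2 fold change of the mean of the Day-4 groups against Day 2 with its 95% interval, with all 14 libraries (filled) and 11 libraries (open), for the 4 genes (above the dotted line) and 5 other genes of mTOR signalling (under it). RRAGB, which rose, is not drawn. RICTOR and TTI1 lie right of 0, TBC1D7 lies left of it and the interval of AKT1S1 crosses it, and with 11 libraries the interval of TTI1 also reaches 0.

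Group by group, the levels relative to Day 2 differed between environments. These values are a description, since the genes were chosen for their order among Day-4 groups, and the 3 comparisons share the same 5 Day-2 libraries. The mean level of AKT1S1 was 32.3% of that of Day 2 in IVC, 67.8% in LACT and 148% in DRY. Leaving out Day-2 library 4 moved the log2 fold changes of the fit from -1.63 to -0.98 in IVC, from -0.56 to 0.09 in LACT and from 0.56 to 1.22 in DRY. The mean level of RICTOR was 129%, 154% and 203% in the same order. TTI1 stood at 195%, 309% and 373%, and TBC1D7 at 13%, 50.0% and 72.1%. The log2 fold change of TBC1D7 in DRY was -0.47 with an interval of -1.66 to 0.71, was -0.04 without Day-2 library 5 and turned to 0.26 without Day-2 libraries 3 and 5, so its direction against Day 2 was not settled. On the same scale TBC1D7 in IVC was at -2.94 (SE 0.63) and TTI1 in DRY at 1.90 (SE 0.69), the latter at 1.25 without Day-2 libraries 3 and 5. With 14 libraries the 95% interval of AKT1S1 spanned 0 in IVC (-3.28 to 0.018), in LACT (-2.13 to 1.01) and in DRY (-0.96 to 2.08). Its direction against Day 2 was thus not settled in any group. The 95% interval also spanned 0 in IVC for RICTOR (-0.19 to 0.92) and TTI1 (-0.53 to 2.45). In LACT it did so for TBC1D7 (-2.21 to 0.21). With 11 libraries it lay apart from 0 only for RICTOR in DRY (0.30 to 1.87) and TBC1D7 in IVC (-4.85 to -0.96). The difference of RICTOR between IVC and Day 2 depended on scaling, at 0.37 under TMM and -0.03 under library totals.

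Between Day-4 groups, all 4 genes had their lowest mean in IVC and their highest in DRY, with LACT between. The study chose them on these differences, so the values describe the choice. DRY against IVC gave a log2 fold change of 2.46 (SE 0.38) for TBC1D7, 2.18 (SE 0.49) for AKT1S1, 0.92 (SE 0.26) for TTI1 and 0.64 (SE 0.17) for RICTOR. The corresponding folds were 5.49, 4.53, 1.90 and 1.56. LACT against IVC gave 1.87 (SE 0.37) for TBC1D7, 1.0 (SE 0.47) for AKT1S1, 0.59 (SE 0.26) for TTI1 and 0.18 (SE 0.17) for RICTOR. DRY against LACT gave 1.18 (SE 0.47) for AKT1S1, 0.59 (SE 0.36) for TBC1D7, 0.46 (SE 0.17) for RICTOR and 0.33 (SE 0.26) for TTI1. For TBC1D7 most of the distance between DRY and IVC thus lay between LACT and IVC, whereas for RICTOR more of it lay between DRY and LACT under TMM. Under library totals RICTOR was at 0.33 in both DRY against LACT and LACT against IVC.

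Every DRY library was above every IVC library for all 4 genes, beside 15.3% of 12069 genes. Every LACT library was above every IVC library for 3 of the 4, AKT1S1 being the exception, beside 17.5% of genes. Every DRY library was above every LACT library for 2 of the 4, AKT1S1 and RICTOR, beside 14.5% of genes. With only 2 libraries a group these counts were 4, 3 and 4, beside 16.9%, 18.0% and 16.6%. By library totals with 3 libraries a group they were 4, 2 (TTI1 and TBC1D7) and 1 (TTI1), beside 15.6%, 19.5% and 13.1%. Since these contrasts chose the genes, nothing is read from the counts. The estimates moved little with 6 libraries (DRY against IVC 2.52 for TBC1D7, 2.21 for AKT1S1, 0.98 for TTI1 and 0.70 for RICTOR), but their SEs grew to between 0.39 and 0.88. The difference of RICTOR between DRY and LACT was 0.23 without DRY 1, the library with the highest RICTOR level, and 0.25 without LACT 1, the lowest LACT library. That of TBC1D7 was 0.22 without LACT 1, and that of TTI1 0.19 without DRY 1.

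**Figure D3:**
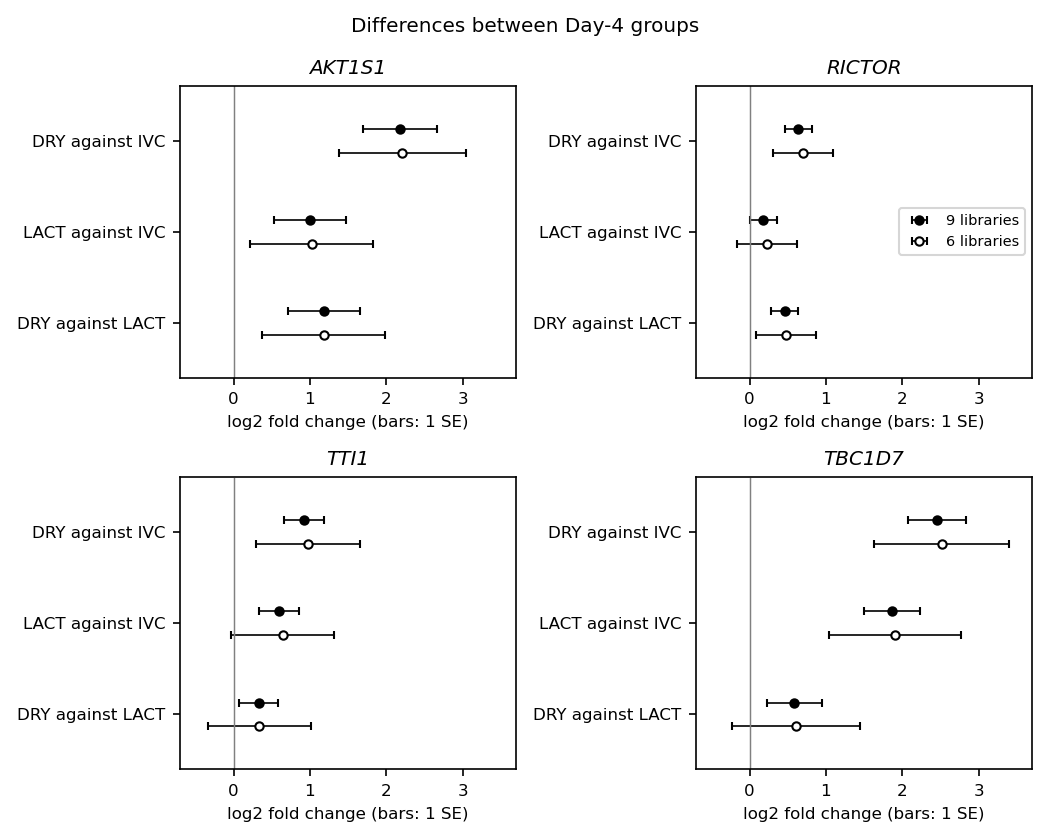
Log2 fold change between pairs of Day-4 groups with bars of 1 SE, for each of the 4 genes, with all 9 Day-4 libraries (filled) and with 6 (open). AKT1S1 and TBC1D7 differ most between DRY and IVC, at 2.18 and 2.46, RICTOR differs least, at 0.64, and the bars widen with 6 libraries while the points stay nearly in place.

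The ratio of 1 gene to another within a library depends on how libraries are scaled only through the pseudocount, which bears most on low levels such as those of TTI1 in Day-2 libraries 3 and 5. The 6 ratios among these genes were computed as log2 of CPM plus 0.5 and compared between the 5 Day-2 and 9 Day-4 libraries with a two-sided exact permutation test over 2002 labelings, whose smallest p is 0.0005, with adjustment over the 6. Gene length was not taken into account, so only the change of a ratio is compared, not its level. RICTOR relative to TBC1D7, an mTORC2 subunit against a subunit of the inhibitory TSC complex, went from 1.44 ± 1.09 (SD, n = 5) on Day 2 to 3.29 ± 0.843 (n = 9) on Day 4, a difference of 1.85 (exact permutation p = 0.0030, adjusted 0.0135). In single libraries it was 2.72, 2.32, 1.37, 0.65 and 0.13 on Day 2. On Day 4 it was 4.36, 4.57 and 4.19 in IVC, 3.22, 2.52 and 2.77 in LACT, and 2.77, 2.54 and 2.66 in DRY. IVC was thus apart from all Day-2 libraries, while LACT and DRY overlapped with the highest of them.

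TTI1 relative to TBC1D7 went from -2.27 ± 2.61 (SD, n = 5) on Day 2 to 0.88 ± 0.769 (n = 9) on Day 4, a difference of 3.15 (exact permutation p = 0.0045, adjusted 0.0135). It was 0.77, -0.46, -4.73, -1.76 and -5.17 on Day 2, with libraries 3 and 5 far under the rest. On Day 4 it was 1.73, 2.10 and 1.38 in IVC, 1.36, -0.07 and 0.52 in LACT, and 0.23, 0.37 and 0.30 in DRY. Day-2 library 1 lay inside the range of Day 4, and the other 4 Day-2 libraries under it. The permutation test takes the spread as equal on both days, although the SD was 2.61 on Day 2 and 0.769 on Day 4. Its p may thus be too small.

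AKT1S1 relative to TTI1 fell by 2.01 on the log2 scale from Day 2 to Day 4 (exact permutation p = 0.0185, adjusted 0.0370). The rise of AKT1S1 relative to TBC1D7, 1.14, did not pass after adjustment (exact permutation p = 0.0355, adjusted 0.0532), nor did the difference of RICTOR relative to TTI1, -1.29 (p = 0.0634 by exact permutation, adjusted 0.0761), or of AKT1S1 relative to RICTOR, -0.72 (p = 0.341 by exact permutation). In all pairs but AKT1S1 to RICTOR, with 7 of 9, each of the 9 Day-4 libraries lay on the same side of the Day-2 mean. With 11 libraries the ratios of RICTOR and TTI1 to TBC1D7 kept their calls (both adjusted p = 0.0455 by exact permutation), and AKT1S1 to TTI1 lost its own (adjusted p = 0.108). With a pseudocount of 2 CPM the difference of AKT1S1 to TTI1 was -1.68 and did not pass (adjusted exact permutation p = 0.0519). That call was also lost in 8 of the 14 tests that left out 1 library, namely Day-2 library 3, 4 or 5, IVC 1 or 2, LACT 1 or 3, or DRY 1 (adjusted exact permutation p from 0.0513 to 0.115).

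**Figure D4:**
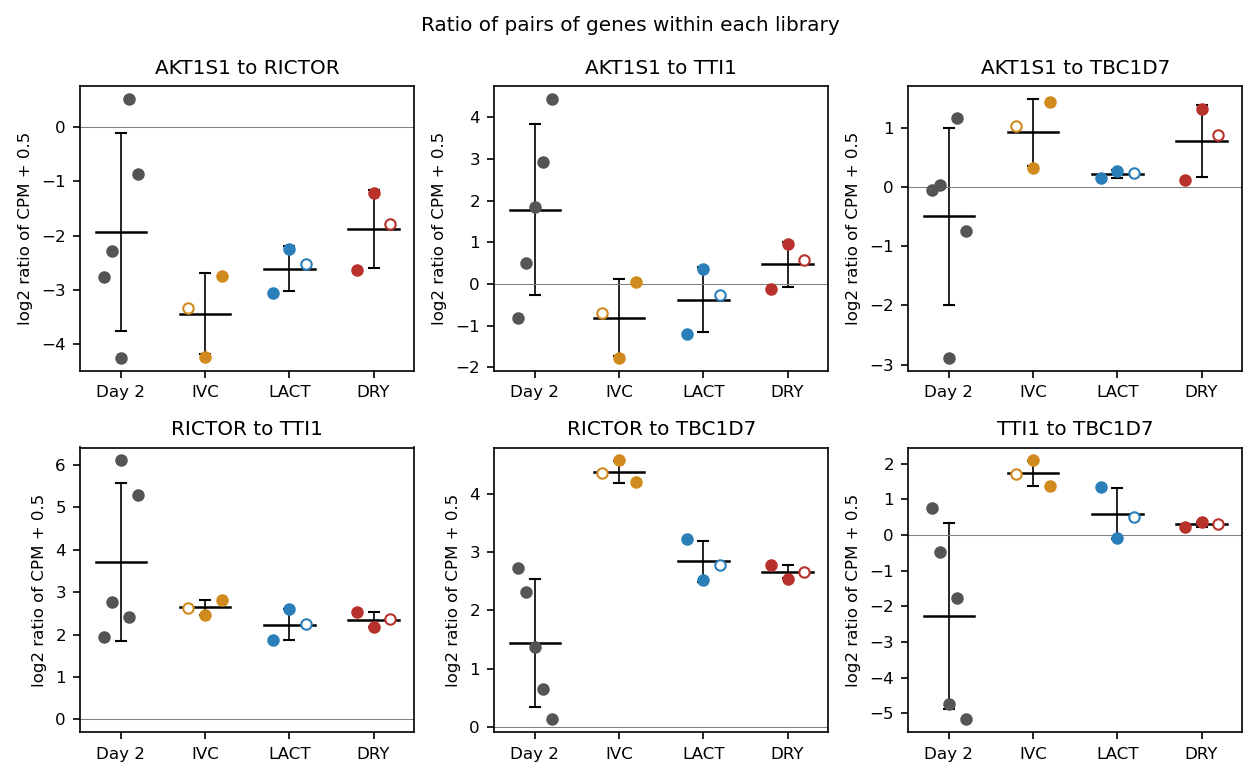
Log2 ratio of 2 genes (CPM plus 0.5) within each library, for the 6 pairs of AKT1S1, RICTOR, TTI1 and TBC1D7, by group. Group means are drawn as bars with their SD, and the libraries IVC 1, DRY 3 and LACT 3 as open points. RICTOR to TBC1D7 averages 1.44 on Day 2 and 3.29 on Day 4, and TTI1 to TBC1D7 averages -2.27 and 0.88, with IVC the highest group in both.

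The study's list also holds genes of the amino-acid input of mTORC1, and 6 of them are given here, again chosen for differences between Day-4 groups. From Day 2 to Day 4, 4 of the 6 fell, 1 rose and 1 did not pass, beside 33.0% of all genes lower and 30.9% higher, and the same counts held with 11 libraries. RRAGD, a Rag GTPase that brings mTORC1 to the lysosome, and SESN2, a leucine sensor, fell by 3.88 (SE 0.46) and 3.30 (SE 0.43) on the log2 scale. The lysosomal arginine sensor SLC38A9 fell by 1.26 (SE 0.34) and MIOS, a subunit of the GATOR2 complex, by 0.85 (SE 0.21). Their edgeR adjusted p-values were 0.00515 or lower. RRAGB, another Rag GTPase, had at most 1 count in any Day-2 library and a mean of 16.7 CPM over the Day-4 groups, at least 156-fold higher than 3 counts in a Day-2 library would give. LAMTOR4, a subunit of the Ragulator complex, ranged from 0 to 4.21 CPM on Day 2, from 0 to 0.0483 CPM in IVC, from 0.221 to 11 CPM in LACT and from 25.4 to 203 CPM in DRY (edgeR adjusted p = 0.628 for Day 4 against Day 2). In the mean of the Day-4 groups TBC1D7 thus fell with 4 genes of the amino-acid input. RICTOR and TTI1 rose, as RRAGB did, and the call of TTI1 was lost with 11 libraries. In DRY against Day 2 the 95% interval spanned 0 for MIOS (-0.86 to 0.37) and SLC38A9 (-1.33 to 0.66), as for TBC1D7. It lay under 0 there for RRAGD (-3.62 to -0.82) and SESN2 (-3.02 to -0.42). All 6 were higher in every DRY library than in every IVC library, beside 15.3% of genes, a contrast on which the list was chosen.

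The genes most like each of the 4 over the 14 libraries were sought by Pearson's r of log2(CPM + 0.5) among 9292 other genes with a mean of at least 5 CPM. The libraries share their 4 groups and the difference between the days, so these r values are a description. TTI1 had the closest neighbours, ENSBTAG00000020633, ENSBTAG00000018783 and ENSBTAG00000021744, with r of 0.971, 0.960 and 0.954. Like TTI1, all 3 had their lowest mean on Day 2 and their highest in DRY, but ENSBTAG00000018783 was higher in IVC (45.7 CPM) than in LACT (37.8 CPM), unlike TTI1. For RICTOR they were ENSBTAG00000002534, ENSBTAG00000015878 and ENSBTAG00000049910, with r of 0.921, 0.907 and 0.903. Each had its lowest mean on Day 2 and its highest in DRY, as RICTOR did. Unlike RICTOR, ENSBTAG00000015878 was higher in IVC (30.7 CPM) than in LACT (22.2 CPM). For TBC1D7 they were ENSBTAG00000007256, ENSBTAG00000000943 and ENSBTAG00000011345, with r of 0.923, 0.878 and 0.874, and each had its lowest mean in IVC and its highest on Day 2, as TBC1D7 did. AKT1S1 was closest to ENSBTAG00000005631, ENSBTAG00000003268 and ENSBTAG00000053677, with r of 0.893, 0.889 and 0.885. With 11 libraries r was between 0.842 and 0.971 over these 12 genes. No gene was among the nearest of more than 1 of the 4.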

How the data were processed

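RNA of pools of 5 embryos was made into libraries with the NuGEN Encore Complete kit and sequenced as single-end reads. The authors deposited raw counts for each Ensembl gene. They checked reads with FastQC 0.11.9, trimmed them with Trimmomatic, aligned them to bosTau9 (STAR 2.7.0b) and assigned them to genes by featureCounts (Subread 2.0.3). The annotation release and strand setting are not given in the sources used here. In the RefSeq gene table, matched by symbol, 0 genes overlap any of the 4 genes. That table is on ARS-UCD2.0 and not on bosTau9, so the gene models that were counted may differ from it.

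Counts were scaled with TMM and fitted with edgeR 4.0.16 (limma 3.58.1, R 4.3.3; robust quasi-likelihood, 1 coefficient per group), over 14 libraries for contrasts with Day 2 and over the 9 Day-4 libraries for contrasts between Day-4 groups. A gene entered a fit if 3 or more of its libraries held 1 CPM or more (13390 and 12069 genes). Benjamini-Hochberg adjustment ran over all genes tested, and a gene passed at an adjusted p under 0.05. SE is the log2 fold change divided by the root of its F statistic. The scripts were tested on simulated counts. Library sizes of 22711367 to 40357379 counts put 3 counts at 0.0743 to 0.132 CPM, which covers counting error only. Ratios used Python 3.11.15. Alternatives were DESeq2 1.42.0 (test and size factors), no filter, removal of the 10 genes of highest counts, the study's own edgeR test (likelihood ratio, observation weights), a replicate block, leaving out libraries and, added after seeing the data, library totals (also for counts of groups that do not overlap) and removal of Day-2 libraries 3 and 5.

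The 4 genes and the lists were chosen with earlier results of these data known. The genes named are these 4, 6 others that the study pairs with an Ensembl ID and, per gene, the 3 most like it. Lists and markers fixed by symbol, mTOR itself, gene lengths, sequences and coordinates beyond that overlap were not analysed here, since the reference table pairs no Ensembl ID with a symbol. Some genes of the study's list are not reported here. The authors' polynomial regression over time was not run.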

Additional observations from a re-analysis of the deposited data

How the results depend on the processing

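Alternatives other than leaving out 1 library gave 45 values of Day 4 against Day 2, for the 4 genes and for the number of genes called. Of these, 36 were unchanged, which for the 4 genes means the same direction and side of the threshold. For the number of genes called it means a similar size, and each of those values was among the 36. In the 4 genes 8 values lost their call and 1 reversed. Log2 fold changes that did so were as follows, with edgeR adjusted p, and where no cause is shown the cause was not tested. RICTOR was at 0.30 under library totals. TTI1 was at 1.43 without the filter (0.0510), 1.53 without the 3 libraries at the mean of the others (0.0915; fewer samples) and 1.19 under library totals. TBC1D7 was at -0.74 without Day-2 libraries 3 and 5. Leaving out 1 library gave -0.82 to 0.11 for AKT1S1, 0.55 to 0.79 for RICTOR, 1.21 to 1.82 for TTI1 and -1.73 to -1.03 for TBC1D7. Replicate numbers did not pair the libraries: 1 of 18 same-number pairs had a correlation of deviations over 0.1 (range -0.055 to 0.146), and 3 of 14 libraries correlated best with their own number. The replicate block gives no weight to Day-2 libraries 4 and 5. Under it AKT1S1 was at 0.97, RICTOR at 0.53 (0.0792), TTI1 at 1.43 (0.0935) and TBC1D7 at -0.73 (0.172), AKT1S1 against Day 2 was at -0.0098 in IVC, 2.03 in DRY and 0.90 in LACT, TBC1D7 in DRY turned to 0.31, and the ratio of AKT1S1 to RICTOR reversed to 0.46. Genes called numbered 8560, and 7640 with the block.

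Between Day-4 groups, RICTOR in LACT against IVC moved to 0.33 under library totals. Leaving out 1 library gave 0.23 to 0.55 for RICTOR and DRY against LACT, 0.18 to 0.32 for RICTOR and LACT against IVC, 0.46 to 0.75 for RICTOR and DRY against IVC, 0.54 to 0.79 for TTI1 and LACT against IVC, 0.77 to 1.03 for TTI1 and DRY against IVC and 2.28 to 2.56 for TBC1D7 and DRY against IVC. The ratio of AKT1S1 to TTI1 was -1.68 with a pseudocount of 2 CPM and -2.06 without the 3 libraries at the mean of the others, and -2.66 to -1.35 when 1 library was left out. That range was 0.54 to 1.55 for AKT1S1 to TBC1D7, which passed without Day-2 library 4, and -1.74 to -0.69 for RICTOR to TTI1, which passed without Day-2 library 1. The counts of the 6 other genes held in all alternatives run. Alternatives for lists fixed by symbol were not run. The lowest count of any of the 4 genes was 35 (TTI1 in Day-2 library 3), over the floor of 3 counts, so their detection was not limited by depth.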
